A study of Drosophila melanogaster with 12 samples.

Results

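Trithorax group proteins keep developmental genes active and oppose silencing by Polycomb proteins, and the best known targets of both are the Hox genes. One class of trithorax group proteins modifies histones. The methyltransferases trx, trr and Set1 act on lysine K4 of histone H3, each in a complex of its own that shares the core subunits of the COMPASS family. Another class remodels nucleosomes, and its best known assembly is the Brahma complex, the fly SWI/SNF complex, which slides or evicts nucleosomes with energy from ATP. This section describes 10 genes of these classes, which were chosen by name from the 23882 features of the count table. They are trx, trr, Set1, ash1 and Utx, which encode histone methyltransferases and a demethylase, and brm, mor, osa, Snr1 and Bap60, which encode subunits of the Brahma complex. All 10 were present in the table under 1 identifier each.

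RNA-seq of polyadenylated RNA was performed on Kc cells, a female Drosophila melanogaster line with features of hemocytes (blood cells), after 5 days of treatment with dsRNA (double-stranded RNA that triggers loss of its matching mRNA). The 4 groups were cells treated with dsRNA against dGcn5 (listed as Gcn5, a histone acetyltransferase), against Elp3 (a subunit of Elongator), against nej (the fly CBP acetyltransferase) and against yellow (y, a pigmentation gene), the last being the control. Each group had 3 libraries, all from the same unmodified cell line. Replicates share a line and a label number, and no source used here says that they were separate cultures, so p-values measure the spread between these libraries, which may be technical. In bulk RNA, fewer cells that express a gene and less RNA per cell cannot be told apart.

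Libraries held between 19102102 and 23198850 counts. Gcn5 measured 28.7, 43.2 and 48.5 CPM (counts scaled to library size and normalized by TMM) in dGcn5-depleted libraries, against 150, 135 and 128 CPM in control libraries. The other targets went against their labels or showed no fall. Elp3 measured 1899.8 to 4126 CPM in the libraries labelled Elp3, against 45.9 to 58.8 CPM in control libraries, and nej measured 309 to 3245 CPM in the libraries labelled nej, against 46.8 to 205 CPM in control libraries. Both groups are therefore named by their labels alone, as the libraries labelled Elp3 or nej. The y transcript was not lower in control libraries, at 10.99 to 44.0 CPM, than in the 9 others, at 8.47 to 43.2 CPM. All 11 hemocyte markers averaged at least 1 CPM, summing to 1344 to 7452 CPM per library. That level was reached by 0 of 4 fat body markers and by 3 of 4 neuron, muscle and germ line markers each. Of the 3 dosage compensation genes listed as marks of male cell lines, neither roX RNA reached it, but msl-2 did. The mean of msl-2 was 4.25 CPM in dGcn5-depleted libraries, 3.85 and 7.11 CPM in those labelled Elp3 and nej, and 4.47 CPM in control libraries.

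The members differed widely in the length of their annotated exons, against which their values in the libraries are set further on. The longest was trx (FBgn0003862), with 14052 bp of exon at chr3R:14263358-14286903 of BDGP6.32. It was followed by osa (FBgn0261885, 10723 bp, chr3R:17687818-17718350), trr (FBgn0023518, 8314 bp, chrX:1881313-1889950) and ash1 (FBgn0005386, 7615 bp, chr3L:19590773-19598755). Next came brm (FBgn0000212, 5597 bp, chr3L:15970082-15982869), Set1 (FBgn0040022, 5555 bp, chr3L:25107594-25115180), Utx (FBgn0260749, 4418 bp, chr2L:10272325-10278811) and mor (FBgn0002783, 3983 bp, chr3R:15968134-15972913). The shortest were Bap60 (FBgn0025463, 1936 bp, chrX:13157445-13159508) and Snr1 (FBgn0011715, 1335 bp, chr3R:5470926-5472754). Exons of 4 members overlapped features of the opposite strand, by 570 bp with asRNA:CR46020 and 10 bp with CG14839 for trx, 257 bp with MED21 for Set1, 120 bp with Coa8 for trr and 5 bp with Rbf2 for mor. Whether the counting used the strand is not given in the sources used here, so the counts of these 4 genes are uncertain by the reads of the shared stretches, which make up 4.63% of the exon length for Set1 and 4.06% for trx with asRNA:CR46020. The share of reads that fell there was not measured.

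All members were well measured in every library, with between 389 counts (ash1) and 8035 counts (osa) per gene and library. Levels of different genes were compared as RPKM, which divides the TMM-normalized CPM by exon length in kb. The geometric mean over the 12 libraries was highest for the Brahma subunits, at 52.0 RPKM for Bap60, 44.2 RPKM for Snr1, 41.6 RPKM for mor and 31.4 RPKM for brm. These encode core subunits, of which brm is the ATPase, mor a scaffold and Snr1 the homolog of SNF5. The levels of osa, which encodes the ARID subunit that defines the BAP form of the complex, and of the H3K27 demethylase gene Utx followed at 18.2 and 18.1 RPKM. The methyltransferase genes were lowest, at 15.6 RPKM for Set1, 8.65 RPKM for trx, 6.92 RPKM for trr and 4.92 RPKM for ash1.

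Of the 9 pairs of neighbours in this order, 6 differed and 3 did not differ beyond their spread over the libraries, by an exact two-sided sign-flip permutation test on paired log2 RPKM, adjusted over the 9 pairs. The pairs that missed the threshold were Snr1 and mor (mean log2 difference 0.09, SD 0.56, adjusted p = 0.670, Snr1 higher in 4 of 12 libraries), osa and Utx (0.02, SD 0.57, adjusted p = 0.924, osa higher in 6 of 12) and Utx and Set1 (0.21, SD 0.45, adjusted p = 0.177, Utx higher in 8 of 12), in exact permutation tests with n = 12. For Bap60 and Snr1, mor and brm, brm and osa, and trr and ash1, the higher gene was higher in 12 of 12 libraries, with an adjusted p of 0.0011 each by this exact permutation test. Set1 lay above trx in 11 libraries and trx above trr in 9 (adjusted exact permutation p = 0.0018 and 0.021). The order, and so the pairs, were taken from the same 12 libraries that these tests used. The tests pool the libraries of all 4 groups as if they were replicates, and RPKM does not remove the dependence on exon length given further on. Snr1 lay above mor in dGcn5-depleted replicates 1 and 2, the first library labelled Elp3 and control replicate 3, where long features were lowest. The order was not tested with that dependence removed. The order of geometric means was the same with the longest coding sequence in place of the exon length and in the 3 control libraries alone. It did not hold in any single control library. Set1 lay above Utx and mor above Snr1 in control replicates 1 and 2, and mor also above Bap60 in replicate 2. In control replicate 3, Utx lay above osa (9.12 and 8.36 RPKM) and trr above trx (3.29 and 2.59 RPKM).

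**Figure D1:**
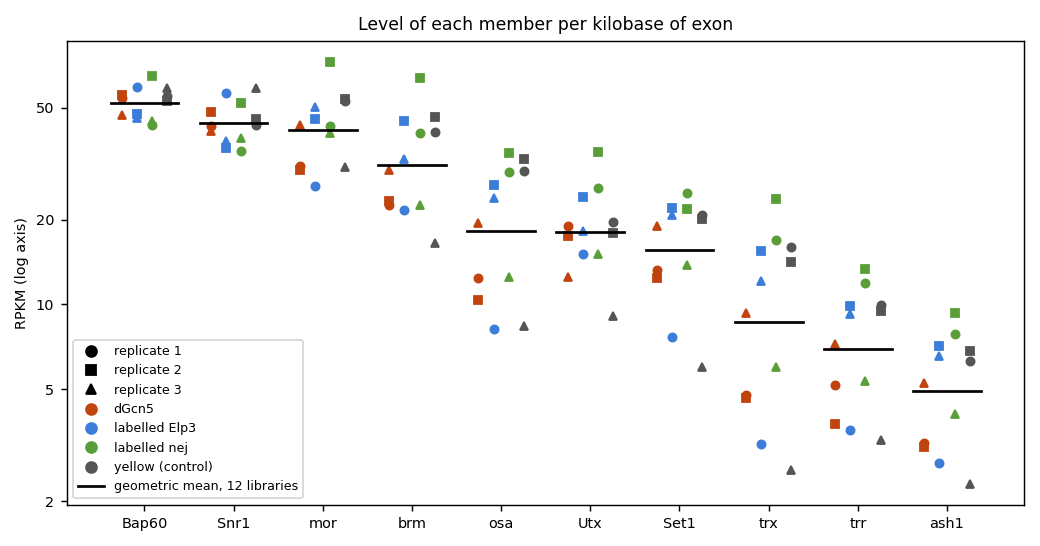
Level of each of the 10 genes in RPKM (vertical axis, log scale) in 12 libraries, with colours for the dsRNA groups, symbols for the replicates and bars for the geometric mean over 12 libraries. Bap60 and Snr1 lie in a narrow band, while trx is spread from 2.59 to 23.6 RPKM.

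The 12 libraries differed far more in the long members than in the short ones. trx, the founding gene of the group, measured 67.2, 65.3 and 131 CPM in dGcn5-depleted replicates 1, 2 and 3. It measured 44.8, 218 and 170 CPM in the libraries labelled Elp3, 239, 332 and 84.3 CPM in those labelled nej, and 225, 198 and 36.4 CPM in control libraries. The third control library and the first library labelled Elp3 were the lowest, and the highest library exceeded the lowest 9.12-fold. Each group thus held libraries that lay far apart, and the dGcn5-depleted and control ranges overlapped.

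osa, like trx, differed between libraries of the same group. It measured 133, 111 and 208 CPM in dGcn5-depleted libraries, 87.7, 286 and 257 CPM in those labelled Elp3, 317, 369 and 134 CPM in those labelled nej, and 318, 354 and 89.7 CPM in control libraries. Here too the first library labelled Elp3 and the third control library were lowest. In trr, which encodes the methyltransferase that marks enhancers with H3K4 monomethylation, the values were 43.1, 31.1 and 60.3 CPM in dGcn5-depleted libraries, 29.7, 82.2 and 77.0 CPM in those labelled Elp3, 99.3, 111 and 44.4 CPM in those labelled nej, and 82.8, 78.8 and 27.3 CPM in control libraries. ash1, which encodes a methyltransferase for lysine K36 of histone H3, measured 24.5, 23.7 and 40.1 CPM in dGcn5-depleted libraries, 20.8, 54.1 and 50.005 CPM in those labelled Elp3, 59.9, 70.9 and 31.1 CPM in those labelled nej, and 47.9, 52.0 and 17.6 CPM in control libraries. In all of these genes the third control library lay below every dGcn5-depleted library, while control replicates 1 and 2 lay above every one of them.

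brm, the ATPase gene, measured 126, 130 and 168 CPM in dGcn5-depleted libraries, 121, 252 and 185 CPM in those labelled Elp3, 228, 356 and 127 CPM in those labelled nej, and 229, 260 and 92.2 CPM in control libraries. mor measured 123, 120 and 173 CPM in dGcn5-depleted libraries, 105.03, 182 and 199.97 CPM in those labelled Elp3, 172, 290 and 161 CPM in those labelled nej, and 210, 213 and 122 CPM in control libraries. For mor the third control library lay between the dGcn5-depleted values. Set1, which encodes the methyltransferase for most H3K4 trimethylation, measured 73.8, 68.8 and 106 CPM in dGcn5-depleted libraries, 42.7, 122 and 115.3 CPM in those labelled Elp3, 138, 122 and 76.4 CPM in those labelled nej, and 115.2, 111 and 33.4 CPM in control libraries. Utx, whose product works in the complex of trr, measured 83.6, 77.0 and 55.5 CPM in dGcn5-depleted libraries, 66.6, 106 and 80.4 CPM in those labelled Elp3, 114.8, 154 and 66.9 CPM in those labelled nej, and 86.5, 79.2 and 40.3 CPM in control libraries. Utx differed from the other long members in dGcn5-depleted replicate 3, which was the lowest of its group rather than the highest.

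The short members were steadier. Snr1 measured 57.6, 64.2 and 55.2 CPM in dGcn5-depleted libraries, 75.1, 48.2 and 51.0 CPM in those labelled Elp3, 47.0, 69.5 and 52.2 CPM in those labelled nej, and 57.8, 61.1 and 78.1 CPM in control libraries. Its highest values fell in the third control library and the first library labelled Elp3, the libraries in which the long members were lowest. Bap60, another core subunit, measured 104.9, 107 and 91.2 CPM in dGcn5-depleted libraries, 114, 92.0 and 88.9 CPM in those labelled Elp3, 83.7, 125 and 86.6 CPM in those labelled nej, and 106, 102 and 114 CPM in control libraries. The ratio of the highest to the lowest library was 1.66 for Snr1 and 1.496 for Bap60, against 2.76 to 4.21 for the long members other than trx.

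**Figure D2:**
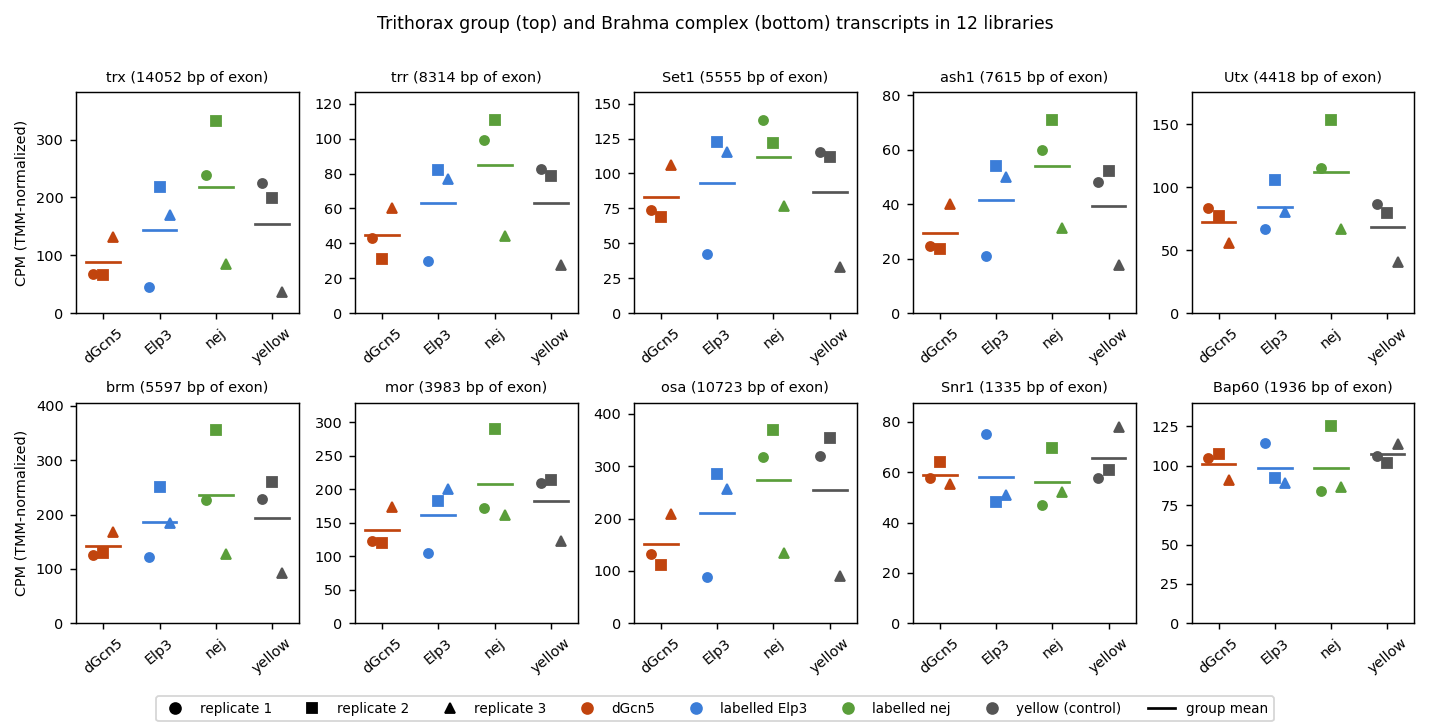
TMM-normalized CPM (vertical axes, starting at 0) of each gene in the 12 libraries, by dsRNA group, with symbols for replicates and bars for group means. In the long genes, control replicates 1 and 2 lie above control replicate 3, which is the lowest of all libraries for trx (36.4 CPM), while Snr1 and Bap60 stay within 47.0 to 78.1 and 83.7 to 125 CPM.

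The 8 members of 3983 bp or more moved together from library to library. All 8 lay below their own mean over the 12 libraries in dGcn5-depleted replicate 2, in the first library labelled Elp3, in the third library labelled nej and in control replicate 3, and 7 of 8 did in dGcn5-depleted replicate 1. In libraries 2 and 3 labelled Elp3, libraries 1 and 2 labelled nej and control replicate 1, 0 of 8 did. Pearson's r of log2 CPM over the 12 libraries had a median of 0.918 across the 28 pairs of long members (range 0.620 to 0.992), and of -0.34 across the 16 pairs of a long member with Snr1 or Bap60. All pairs share the same 12 libraries and their scaling, so these values are descriptions.

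This movement followed exon length in the whole table. Over the 10368 features that passed the filter on low counts in the 12 libraries, the log2 deviation of a feature from its own mean had a slope, per doubling of exon length, of -0.13, -0.21 and 0.05 in dGcn5-depleted replicates 1, 2 and 3. The libraries labelled Elp3 had slopes of -0.34, 0.15 and 0.14, with 0.19, 0.23 and -0.02 in those labelled nej, and 0.13, 0.15 and -0.33 in control replicates 1, 2 and 3. Features of over 8 kb, of which there were 549, had a median deviation of -0.46, -0.62 and 0.20 in dGcn5-depleted libraries, against 0.40, 0.40 and -0.87 in control libraries. trx deviated by -0.85, -0.89 and 0.11 in dGcn5-depleted libraries, against 0.89, 0.71 and -1.74 in control libraries. The trend at the length of trx was -0.52, -0.71 and 0.17 in dGcn5-depleted libraries, against 0.48, 0.53 and -1.11 in control libraries, so that trx deviated in the direction of the trend in all 6.

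With the trend subtracted from each library, the members were much steadier. The SD of log2 CPM over the 12 libraries had a median of 0.25 for the 8 long members after subtraction and 0.66 as measured. Of the features at or above the level of the lowest member, the 1244 that were at least as long as mor had a median SD of 0.28 after subtraction and 0.52 as measured. Snr1 and Bap60 had a median SD of 0.17 after subtraction and 0.21 as measured. A shared movement remained, with a median r among the 28 pairs of long members of 0.611 after subtraction and a range of 0.038 to 0.899. It was not particular to them, since pairs of a long member with Snr1 or Bap60 then ranged from -0.20 (Set1 and Bap60) to 0.870 (mor and Snr1). The length dependence moved with the values of the long members, and its part in them was not tested beyond this subtraction.

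**Figure D3:**
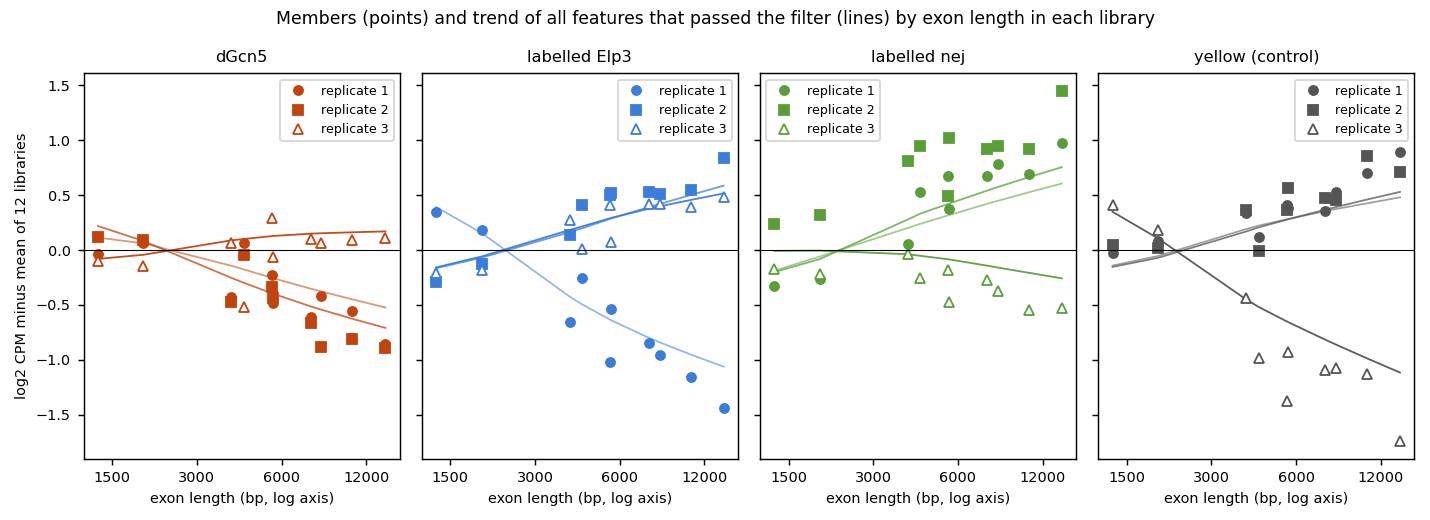
Deviation of each gene from its own mean over 12 libraries (log2 CPM, vertical axis) against exon length (bp, log axis), with points for the 10 genes in each library and lines for the trend of the features that passed the filter. In control replicate 3 the points slope down to -1.74 for trx, and in control replicates 1 and 2 they slope up to 0.89 and 0.71.

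No member was called by edgeR in any comparison of all 3 libraries of a group with the 3 control libraries, while limma-voom with sample quality weights called 7 in dGcn5-depleted cells (given further on). Each comparison was fitted across the whole table with edgeR's quasi-likelihood test, and a feature was called at a Benjamini-Hochberg adjusted p under 0.05. In dGcn5-depleted against control libraries, 0 of 10 members were called, beside 0% of the 9820 features tested. Gcn5, the target of the dsRNA, was itself not called (log2 fold change -1.78, edgeR adjusted p = 0.421), so this test can miss large changes. At an unadjusted p under 0.05 there were 0 of 10 members, against 3.67% of all features. In 0 of 10 members did the 3 dGcn5-depleted libraries all lie on the same side of the 3 control libraries, against 8.1% of all features. DESeq2 on the same 6 libraries also called 0 of 10 members, beside 0.278% of all features. Of the members, 9 had a lower fitted level in dGcn5-depleted cells, where 52.9% of all features did, with a median log2 fold change of -0.40 for the members and -0.03 for all features.

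The fitted log2 fold changes of dGcn5-depleted over control libraries ranged from -0.80 to 0.08 and had wide errors. The lowest was that of trx, which averaged 87.8 ± 37.3 CPM in dGcn5-depleted libraries and 153 ± 102 CPM in control libraries (SD, n = 3 each), a log2 fold change of -0.80 with a 95% confidence interval of -2.24 to 0.63. osa averaged 151 ± 51.0 CPM in dGcn5-depleted libraries and 254 ± 143 CPM in control libraries (SD, n = 3 each), a log2 fold change of -0.75 (interval -1.91 to 0.41). The values were -0.49 for trr, -0.45 for brm, -0.41 for ash1 and -0.39 for mor, with SE of 0.28 to 0.43. They were -0.16 for Snr1 (interval -0.65 to 0.34), -0.09 for Bap60 (interval -0.54 to 0.37), -0.06 for Set1 (interval -1.10 to 0.97) and 0.08 for Utx (interval -0.68 to 0.83). The adjusted p of the 10 members in edgeR's quasi-likelihood test ranged from 0.984 to 0.992. The intervals of Utx, Snr1 and Bap60 lay within 1 log2 unit of 0 on either side, and those of the other 7 members reached past it.

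Replicate 3 of both groups decided this result. It was the library least like the others of its group. By the chi-square per degree of freedom of their counts, dGcn5-depleted replicates 1 and 2 differed by 36.1, against 155 and 243 for replicate 3 with each. For control libraries the values were 28.3, against 345 and 393. The SE and p-values of fits that leave both out therefore do not measure the spread over 3 libraries a group. With dGcn5-depleted replicate 3 and control replicate 3 left out, edgeR's quasi-likelihood test called 7 of 10 members, all lower in dGcn5-depleted cells, beside 43.4% of the 9841 features tested, with 22.3% lower. The log2 fold changes were then -1.66 for trx (SE 0.11, edgeR adjusted p = 0.00018), -1.44 for osa (SE 0.13, edgeR adjusted p = 0.00037), -1.11 for trr, -1.04 for ash1, -0.92 for brm, -0.78 for mor and -0.65 for Set1. Utx at -0.03, Snr1 at 0.05 and Bap60 at 0.05 were not called. In these 4 libraries the slope with exon length was negative in both dGcn5-depleted libraries (-0.13 and -0.21) and positive in both control libraries (0.13 and 0.15), so that the length trend and the dsRNA cannot be told apart in the fit without the length correction. Over the whole table, the features called lower in it had a median exon length of 4698 bp and those called higher 1295 bp.

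With the length trend subtracted from these same 4 libraries, an alternative chosen after seeing the data, 4 of 10 members were called, beside 26.6% of all features. trx (log2 fold change -0.53, SE 0.11, edgeR adjusted p = 0.019), osa (-0.46, SE 0.09, adjusted p = 0.016) and mor (-0.42, SE 0.09, adjusted p = 0.017) were lower in dGcn5-depleted cells, beside 13.5% of all features, and Utx was higher (0.40, SE 0.09, adjusted p = 0.024), beside 13.1%. The values of brm (-0.32), Snr1 (-0.29), trr (-0.28), ash1 (-0.25), Bap60 (-0.11) and Set1 (-0.06) did not pass the edgeR test. With the trend subtracted and all 6 libraries kept, 0 of 10 members and 0% of all features were called, and the log2 fold changes ranged from -0.30 for osa to 0.26 for Utx.

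Among single libraries, control replicate 3 weighed most. Without it 6 members (trx, osa, brm, trr, ash1 and mor) had an unadjusted p under 0.05 in edgeR's test, all lower in dGcn5-depleted cells and beside 8.94% of all features, and the lowest adjusted p of a member was 0.212. The log2 fold changes without it were -1.23 for trx, -1.12 for osa, -0.81 for trr, -0.75 for brm, -0.73 for ash1 and -0.57 for mor. Limma-voom with sample quality weights gave control replicate 3 a weight of 0.111 and dGcn5-depleted replicate 3 a weight of 0.232, where the other 4 libraries had 1.18 to 5.19. It called the same 7 members lower as the fit without replicate 3 of both groups, with 48.5% of all features called and 24.1% lower, at log2 fold changes of -1.58 for trx to -0.57 for Set1. With these weights it rests mainly on the same 4 libraries as that fit and is not separate from it. The features it called lower had a median exon length of 4509 bp and those called higher 1391 bp, so here too the length trend and the dsRNA cannot be told apart.

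**Figure D4:**
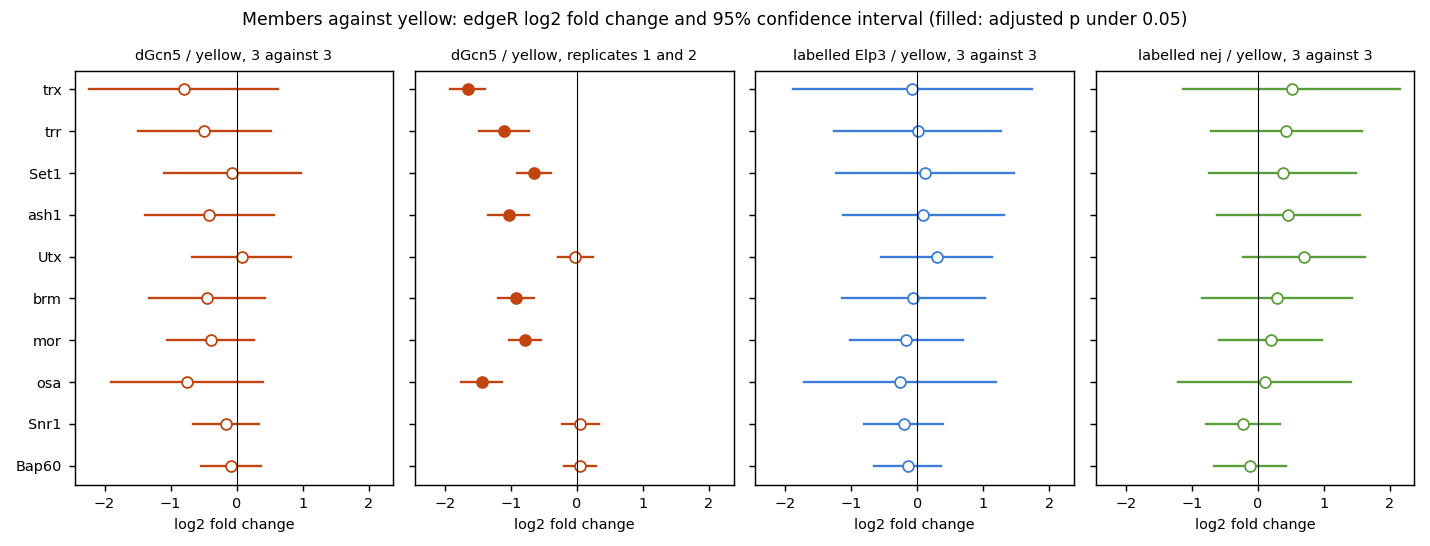
Log2 fold change over control (horizontal axes) and 95% confidence interval from edgeR for each gene, in dGcn5-depleted libraries with all 3 replicates and with replicates 1 and 2 alone, and in the libraries labelled Elp3 and nej. Filled points, with an adjusted p under 0.05, appear in the fit of replicates 1 and 2 alone, for 7 of 10 genes from -1.66 for trx to -0.65 for Set1.

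The libraries labelled Elp3 gave no call either. In the fit of these 3 libraries against the same 3 control libraries, 0 of 10 members were called, beside 0.0101% of 9915 features (1 feature, Elp3 itself), and 0 of 10 had an unadjusted p under 0.05, beside 3.86%. The groups overlapped in all 10 members, where they did not overlap in 8.35% of all features. The median log2 fold change was -0.07 for the members and -0.02 for all features. The members ranged from -0.27 for osa (95% interval -1.72 to 1.19) to 0.29 for Utx (interval -0.55 to 1.13) and all had an edgeR adjusted p of 0.999965. DESeq2 and limma-voom also called 0 of 10 members in these libraries, beside 0.146% and 0.0202% of all features. The first library labelled Elp3 was the lowest of its group in each of the 8 long members and the highest in Snr1 and Bap60.

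In the libraries labelled nej the long members had the highest means of the 4 groups, without passing the test. Against the same control libraries, 0 of 10 members were called, beside 0% of 9816 features, and 0 of 10 had an unadjusted p under 0.05, beside 3.65%. The groups overlapped in all 10 members, where they did not overlap in 9.74% of all features. The 5 histone-modifying members had positive log2 fold changes, of 0.70 for Utx (95% interval -0.22 to 1.63), 0.51 for trx (interval -1.13 to 2.15), 0.46 for ash1, 0.43 for trr and 0.37 for Set1. Those of the Brahma subunits were 0.29 for brm, 0.19 for mor, 0.10 for osa, -0.12 for Bap60 and -0.22 for Snr1. The median was 0.33 for the members and 0.01 for all features, and the edgeR adjusted p ranged from 0.968 to 0.985. DESeq2 and limma-voom also called 0 of 10 members here, beside 0.233% and 0.0102% of all features. With limma-voom the direction turned, with 6 of 10 members lower, a median of -0.11, and log2 fold changes of -0.36 for osa, -0.12 for trx and 0.36 for Utx. In edgeR's test the median was -0.024 without control replicate 3 and -0.023 without replicate 2 of the libraries labelled nej.

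Deviations of the libraries labelled nej correlated with those of control libraries of the same replicate number at r = 0.14, 0.47 and 0.63. Replicate 1 labelled nej correlated best with control replicate 2 (r = 0.21), and no source used here states a pairing. A fit that blocks on replicate number is given beside this result. It left 0 of 10 members called, beside 0.0204% of all features, with a lowest edgeR adjusted p of 0.263 for Utx. At an unadjusted p under 0.05 there were 4 members in the blocked fit, all higher in the libraries labelled nej and beside 6.03% of all features, with log2 fold changes of 0.70 for Utx (SE 0.20), 0.68 for trx (SE 0.25), 0.53 for ash1 (SE 0.20) and 0.49 for trr (SE 0.19). With the length trend subtracted and the block kept, 1 member, Utx, had an unadjusted p under 0.05, beside 4.57% of all features higher. Without control replicate 3, and with no block, the log2 fold change was 0.04 for trx and 0.43 for Utx. The 3 comparisons share their control libraries, so their values are not independent of each other.

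A single test of the 4 groups over all 12 libraries called 0 of 10 members, beside 0.00965% of the 10368 features, and 0 of 10 had an unadjusted p under 0.05, beside 3.6%. The means of trx were 87.8 ± 37.3 CPM in dGcn5-depleted libraries, 144 ± 89.3 CPM in those labelled Elp3, 218 ± 125 CPM in those labelled nej and 153 ± 102 CPM in control libraries (SD, n = 3 each). Those of brm were 141 ± 23.4, 186 ± 65.1 and 237 ± 114.9 CPM in the dGcn5-depleted libraries and those labelled Elp3 and nej, and 194 ± 89.2 CPM in control libraries (SD, n = 3 each). Bap60 averaged 101 ± 8.75, 98.5 ± 13.9 and 98.5 ± 23.2 CPM in the same 3 groups and 107 ± 6.19 CPM in control libraries (SD, n = 3 each). The edgeR adjusted p of this test was 0.999862 for all 10 members, and the likelihood ratio test of DESeq2 also called 0 of them.

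Partners of the members in the same complexes gave no call in any of the 3 comparisons. In dGcn5-depleted cells 52.9% of all features had a lower fitted level. Of 12 further COMPASS subunits and cofactors, 9 had a lower and 3 a higher one, with a median log2 fold change of -0.29. Of these wds, which encodes the WDR5 core subunit, did not overlap between groups, which is 1 of 12 where 8.1% of all features did not. It measured 57.4, 56.9 and 54.4 CPM in dGcn5-depleted libraries, against 68.1, 81.2 and 61.2 CPM in control libraries (log2 fold change -0.32, SE 0.20). Its level was below that of control in all 3 dGcn5-depleted libraries, and the difference did not pass the test (edgeR adjusted p = 0.984).

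Of 8 further Brahma complex subunits, 7 had a lower fitted level in dGcn5-depleted cells, where 52.9% of all features did, with a median of -0.36. The 2 of 8 whose groups did not overlap, where 8.1% of all features did not, were Act5C, a cytoplasmic actin that is also a subunit of the complex (4329.9 to 4915 CPM in dGcn5-depleted libraries, against 6123 to 6738 CPM in control libraries, log2 fold change -0.43, SE 0.23), and BCL7-like (26.3 to 28.8 CPM, against 30.9 to 42.3 CPM in control libraries, -0.41, SE 0.21). polybromo, e(y)3 and Bap170, which define the PBAP form of the complex, had log2 fold changes of -0.17, -0.37 and -0.37, beside -0.75 for osa of the BAP form, and whether osa differed from them was not tested. In the libraries labelled Elp3, Act5C (-0.61, SE 0.27) and Bap55 (-0.36, SE 0.24), an actin-related subunit, did not overlap with control, which is 2 of 8 where 8.35% of all features did not. In those labelled nej, 0 of 8 did.

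Of 12 other trithorax group genes, 12 had a lower fitted level in dGcn5-depleted cells, where 52.9% of all features did. Their median was -0.56, but 0 were called. The value was lowest in kis, the longest of the 12 (19229 bp, -0.95), and nearest 0 in Nurf-38, the shortest (1481 bp, -0.05). Between them the values did not keep the order of length, with -0.82 for tna (6969 bp), -0.60 for fs(1)h (15685 bp) and -0.47 for skd (12307 bp). The part of exon length in these values was not tested. The 1 of 12 whose groups did not overlap, where 8.1% of all features did not, was Trl, which encodes the GAGA factor and measured 10.6, 15.4 and 11.7 CPM in dGcn5-depleted libraries, against 15.8, 23.3 and 17.7 CPM in control libraries (log2 fold change -0.60, SE 0.28, edgeR adjusted p = 0.984). In the libraries labelled Elp3, 10 of 12 were lower with a median of -0.23, where 51.9% of all features were lower. In those labelled nej 8 of 12 were higher with a median of 0.17, where 49.3% of all features were lower. Of the 8 Hox genes, 7 had at most 4 counts in any library of the 4 groups. A fall in them was therefore not detectable at this depth, and none rose above 4 counts. Dfd, the only Hox gene that passed the filter, had 2 to 73 counts in dGcn5-depleted libraries, 0 to 55 in those labelled Elp3, 6 to 38 in those labelled nej and 30 to 72 in control libraries.

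The genes most like trx and brm across the libraries were also long. Over 12 libraries and 9236 candidate genes, the log2 CPM of trx was most like that of upSET (r = 0.996, 12737 bp of exon), CG10631 (r = 0.994, 12133 bp) and cno (r = 0.994, 13220 bp). That of brm was most like CG14200 (r = 0.988, 8141 bp), ssh (r = 0.985, 5086 bp) and CG42232 (r = 0.983, 10901 bp). These values rest on the same 12 libraries and their shared dependence on exon length.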

How the data were processed

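Total RNA of 12 Kc cell samples, 3 for each dsRNA group, was made into stranded polyadenylated RNA libraries by the authors. The methods section of the paper says that reads were trimmed, freed of ribosomal RNA, aligned by STAR to BDGP6.32 and assigned to exons by featureCounts. The values the authors deposited are whole-number counts for 23882 features, neither normalized nor filtered. The strand setting and the use of molecular identifiers are not given in the sources used here.

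Samples were grouped by their labels. Tests on counts used edgeR 4.0.16 (quasi-likelihood; R 4.3.3; TMM, filterByExpr with a minimum of 10 counts, 6 libraries a comparison, Benjamini-Hochberg adjustment over all features tested, two-sided, threshold 0.05) and 1 fit of 12 libraries for the 4 groups. Library totals, 19102102 to 23198850 counts, gave each of the 10 genes at least 389 counts per library, and the spread between replicates exceeded counting error. Log2 CPM used a prior count of 2. The length trend was a lowess curve (span 0.5) of log2 deviations on log2 exon length, entered as an offset. Alternatives used DESeq2 1.42.0, limma-voom (limma 3.58.1), other filters and scalings, the replicate number as a block and libraries left out. The scripts were tested on simulated data that had less spread between replicates than these libraries and no length trend. That test therefore does not measure their power here. Deviations of same-numbered libraries labelled nej and yellow correlated at r = 0.14, 0.47 and 0.63. Replicate 1 labelled nej correlated best with control replicate 2 (r = 0.21), and no source used here states a pairing. A fit blocked on replicate number is therefore given beside the main nej test, which did not use these numbers. For dGcn5 and Elp3 the blocked fit is given only among the alternatives.

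The 10 genes, the partner lists and the tests were chosen with earlier results of these data known. Named beside the 10 were the dsRNA targets, up to 2 genes of each list whose groups did not overlap in a comparison, and the 3 genes most like trx and brm. The 3 PBAP subunits, kis, Nurf-38 and the Hox gene Dfd fall outside this rule and were named after their values were seen.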

Additional observations from a re-analysis of the deposited data

How the results depend on the processing

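Of the single-gene log2 fold changes recomputed under alternatives other than leaving out 1 library, 32 changed sign, 18 passed the threshold and 312 kept their direction and their side of it. All 18 were in dGcn5-depleted against control libraries, under limma-voom or without replicate 3 of both groups. In that comparison the count of called members was 7 with limma-voom, 7 without replicate 3 of both groups and 4 when these were left out with the length correction, and the counts at an unadjusted p under 0.05 were 7, 7 and 6, beside 56.2%, 52.4% and 41.5% of all features. All features called numbered 45 with DESeq2 on 6 libraries, 18 with DESeq2 on 12, 4765 with limma-voom, 4275 without replicate 3 of both groups and 2619 when these were left out with the length correction. Set1 changed sign to 0.073 with the replicate block, 0.20 with the length correction and 0.25 with both. With limma-voom Utx was -0.0015, Snr1 0.0071 and Bap60 0.022, and without replicate 3 of both groups these were -0.028, 0.052 and 0.046.

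For the libraries labelled Elp3, all features called numbered 24 with DESeq2 on 6 libraries, 13 with DESeq2 on 12, 0 with the replicate block, 2 with limma-voom, 0 without replicate 3 of both groups and 464 when these were left out with the length correction. Members at an unadjusted p under 0.05 numbered 1 (Utx) with the length correction and block, beside 10.3% of all features, and 2 without replicate 3 of both groups and with the length correction, beside 28.7%. trx changed sign to 0.025 with the replicate block, and brm to 0.0030 with the length correction and 0.0087 with that and the block. trr changed to -0.014 with DESeq2 on 6 libraries, -0.0072 with DESeq2 on 12, -0.0061 with DESeq2's size factors in edgeR, -0.12 with limma-voom, -0.53 without replicate 3 of both groups and -0.10 when these were left out with the length correction. Set1 changed to -0.026 with limma-voom, -0.46 without replicate 3 of both groups and -0.16 with the length correction as well. Without replicate 3 of both groups ash1 was -0.42 and Snr1 0.0084.

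For the libraries labelled nej, all features called numbered 38 with DESeq2 on 6 libraries, 43 with DESeq2 on 12, 1 with all groups fitted together in edgeR, 2 with the replicate block and 1 with limma-voom. Members at an unadjusted p under 0.05 numbered 4 with the block, 1 with the length correction and block, 1 without replicate 3 of both groups and 1 when these were left out with the length correction, beside 11.5%, 9.9%, 8.78% and 8.55% of all features. With limma-voom trx was -0.12, brm -0.15, mor -0.11 and osa -0.36. osa was -0.14 with the length correction, -0.15 with that and the block and -0.13 without replicate 3 of both groups and with the length correction, where Snr1 was 0.0025 and Bap60 0.0028. In the test of 4 groups, all features called numbered 3 without the filter, 86 with the DESeq2 likelihood ratio test and 2 with the length correction, and 3 members had an unadjusted p under 0.05 without replicate 3 of all groups, beside 15.9% of all features.

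With each library left out in turn, 0 members were called in every comparison. Members at an unadjusted p under 0.05 numbered 0 to 6 for dGcn5, where the count of 6 was without control replicate 3 (17.3% of all features), and 0 to 1 for the libraries labelled nej, where the count of 1 was without their replicate 3 (6.43% of all features). All features called numbered 0 to 1 for the libraries labelled Elp3. Medians of the members ranged from -0.65 to -0.19 for dGcn5, -0.31 to 0.28 for the libraries labelled Elp3 and -0.024 to 0.58 for those labelled nej. For dGcn5, the genes that changed sign ranged from -0.41 to 0.17 (Set1), -0.16 to 0.25 (Utx), -0.26 to 0.031 (Snr1) and -0.12 to 0.0014 (Bap60). For the libraries labelled Elp3 they ranged from -0.54 to 0.36 (trx), -0.35 to 0.36 (trr), -0.27 to 0.48 (Set1), -0.26 to 0.43 (ash1), -0.40 to 0.21 (brm), -0.38 to 0.091 (mor) and -0.67 to 0.12 (osa). For those labelled nej they ranged from -0.017 to 0.63 (Set1), -0.13 to 0.58 (brm), -0.12 to 0.34 (mor) and -0.30 to 0.43 (osa).

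Same-numbered dGcn5-depleted and control libraries correlated at -0.12, 0.20 and -0.01, and libraries labelled Elp3 with control at -0.64, 0.72 and -0.10, so these numbers were not taken to pair the samples. The replicate block called 0 members in each comparison, and dGcn5-depleted replicate 2 and the second library labelled Elp3 were the only ones of these 6 to correlate best with their own number. The cause of these changes was not tested. Coding lengths of RefSeq proteins were not used here, and the order of levels was recomputed with the longest annotated coding sequence instead, which was chosen after seeing the data. With 3 libraries a group, the 95% interval of a member reached 0.45 to 1.43 log2 units to either side for dGcn5, 0.51 to 1.81 for the libraries labelled Elp3 and 0.54 to 1.64 for those labelled nej.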
